A study of Mus musculus with 4 samples.

Results

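Of the 23038 genes measured in the E14.5 mouse cortex, 10 encode PDZ scaffold proteins of cell polarity and of the synapse that are described here: *Erbb2ip*, *Scrib*, *Lrrc7*, *Grip1*, *Grip2*, *Dlg1*, *Dlg2*, *Dlg3*, *Dlg4* and *Pard3*. They were picked by gene symbol, and their alternative splicing events by gene identifier. They hold 74 of the 38240 annotated events, and 46 of these were among the 11500 events with enough tags to be tested. *Erbb2ip* and *Grip1* were picked because of exon switches in the same control and *Qk* cKO samples, so their values are a description. Where the number of their called events is given, it restates how they were chosen and tests nothing. The other 8 genes were tested.

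Poly-A selected mRNA of the E14.5 cortex was sequenced, with 2 embryos in the control group and 2 in the *Qk* cKO group. Both groups were *Qk* flox/flox littermates, and the *Qk* cKO embryos also carried Cre recombinase under the *Nestin* promoter, which is active in neural progenitors. Removal of the floxed exon of *Qk* therefore takes place in progenitors and is inherited by the cells they produce, while cells of other origin in the tissue keep the exon. *Qk* encodes the Qki proteins, RNA-binding proteins that act on splicing. Since whole cortex was used, fewer cells of a type and less RNA per cell cannot be told apart. Likewise, a shift in the use of an exon within cells cannot be told apart from a shift in the mixture of cells that use it.

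PDZ domains bind the C-terminal tails of membrane receptors, and proteins with such domains hold receptors, adhesion molecules and signaling enzymes at a defined place of the cell surface. In epithelial cells, including the radial glia that line the cortical ventricle, Pard3 marks the apical junctions, whereas Scrib, the Dlg proteins and Erbin belong to the basolateral side. In neurons, the Dlg, Grip and Lrrc7 proteins anchor glutamate receptors and their partners at the postsynaptic membrane. Scrib, Erbin and Lrrc7 form the LAP family, which combines leucine-rich repeats with PDZ domains.

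Between 37942046 and 42994832 tags, the unit in which Quantas counts, were assigned to genes in each sample, and 17555 to 17676 genes had tags. The junction of *Qk* exon 2, the floxed exon, with exon 3 had 635 and 565 tags in the controls but 63 and 68 in *Qk* cKO, as the genotype labels say. Markers of cortical progenitors, intermediate progenitors, cortical neurons and telencephalon were found in all 4 samples, with none of them at 0. The summed RPKM (the tags of a gene per kilobase of its exons, scaled to the size of the library) of the 4 progenitor markers was 92.0 to 92.4 in control and 86.1 to 86.9 in *Qk* cKO, and that of the 4 cortical neuron markers was 210 to 247 and 219 to 254. The 3 hypothalamic markers summed to 9.41 to 11.9 RPKM in control and 7.32 to 7.97 in *Qk* cKO. The ranges of 4 meningeal and mesenchymal markers were 98.5 to 109 and 101 to 135, and those of the 5 blood markers found of 7 listed were 589 to 595 and 600.1 to 817. The part of these differences in any result was not tested.

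*Erbb2ip*, named *Erbin* in the annotation, encodes a LAP protein that binds the receptor ErbB2 through its PDZ domain. It lies on the minus strand at chr13:103818787-103920514 (mm10). All its annotated events, called or not, lie between exons 21 and 25 of the annotated transcript with 27 exons. The location of the called events was thus set by the annotation. This region holds the 3 alternative exons 22, 23 and 24. Their lengths of 144, 117 and 207 nt are multiples of 3, corresponding to 48, 39 and 69 codons, and none of them holds a stop codon in the annotated frame. The 3 sequences are shown because they are the coding segments of *Erbb2ip* whose inclusion differed. They are from GENCODE M21 (GRCm38, the build of mm10), 5′ to 3′ on the minus strand, at chr13:103830188-103830331, chr13:103827907-103828023 and chr13:103824720-103824926. Capitals mark ACTAAT, one of the forms of the element that Qki proteins are known to bind.
Erbb2ip exon 22: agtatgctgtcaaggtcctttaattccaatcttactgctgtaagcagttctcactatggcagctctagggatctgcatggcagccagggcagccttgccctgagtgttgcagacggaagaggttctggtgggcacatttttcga
Erbb2ip exon 23: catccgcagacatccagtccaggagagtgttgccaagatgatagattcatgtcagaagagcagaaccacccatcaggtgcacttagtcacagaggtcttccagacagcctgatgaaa
Erbb2ip exon 24: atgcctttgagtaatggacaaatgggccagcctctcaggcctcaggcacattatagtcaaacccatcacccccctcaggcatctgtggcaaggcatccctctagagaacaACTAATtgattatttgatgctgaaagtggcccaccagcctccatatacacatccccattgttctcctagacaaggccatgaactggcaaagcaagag

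*Grip1* encodes a multi-PDZ adaptor that binds AMPA-type glutamate receptors and ephrin-B ligands. It lies on the plus strand at chr10:119453830-120087261. Its alternative exon 10, in the numbering of the transcript with 25 exons, has 156 nt (52 codons), carries no stop codon in frame and is found in 4 annotated transcripts. The exon lies at chr10:119985474-119985629 and is shown, also from GENCODE M21, because it was the segment included less in *Qk* cKO.
Grip1 exon 10: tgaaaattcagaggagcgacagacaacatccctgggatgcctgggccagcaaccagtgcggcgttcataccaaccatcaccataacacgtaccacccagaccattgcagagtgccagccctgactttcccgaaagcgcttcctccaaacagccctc

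The letters ACTAAC were in none of these 4 exons, searched only in the sequence of the transcript (sense strand), and ACTAAT was present once, in *Erbb2ip* exon 24. For comparison, ACTAAT was in 9 of 816 annotated exons of 207 nt (1.10%). The flanking introns, which were not read here, can hold such elements as well.

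**Figure D1:**
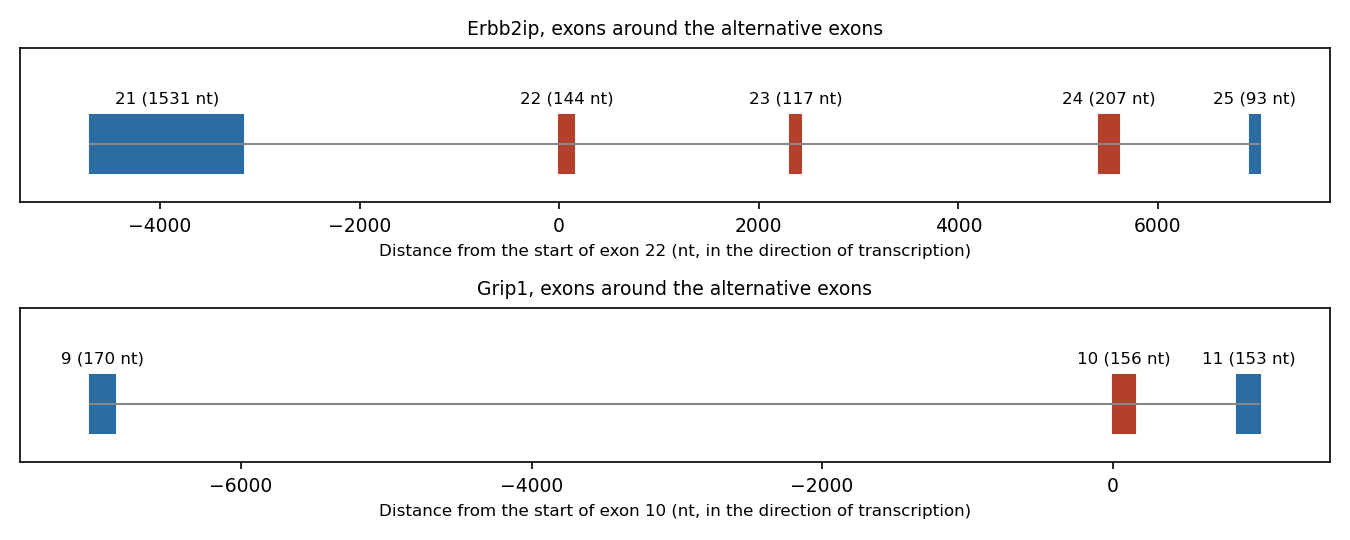
The exons of *Erbb2ip* (top) and *Grip1* (bottom) around the switches, drawn to scale along the distance in nt from the start of exon 22 or exon 10 in the direction of transcription, with alternative exons in red and flanking exons in blue. The 3 *Erbb2ip* exons lie between the 1531-nt exon 21 and exon 25, separated by introns of 3166, 2164, 2980 and 1313 nt, and *Grip1* exon 10 lies 6866 nt after exon 9 and 702 nt before exon 11.

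*Erbb2ip* exon 22 was included more in *Qk* cKO. Inclusion, calculated from the tags on the junctions, was 0.201 in control replicate 1 (95% Wilson interval 0.146 to 0.272) and 0.250 in control replicate 2 (0.183 to 0.333). It was 0.709 (0.639 to 0.770) and 0.617 (0.545 to 0.684) in *Qk* cKO replicates 1 and 2. Both *Qk* cKO samples lay above both controls and the intervals of the groups did not overlap. The difference Δ*I*, control minus *Qk* cKO, was -0.439 over the summed tags (95% Newcombe interval -0.504 to -0.367). These intervals cover counting error only. Coverage, the smallest row or column sum of the junction tags by group, was 341 tags. Δ*I* ranged from -0.485 to -0.394 when each sample was left out in turn.

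The tags leaving exon 21 show which exon took its place. The junction of exons 21 and 22 had 40.0 and 35.4 tags in the controls and 130.8 and 118 in the *Qk* cKO samples, corresponding to 15.5% and 18.5% of all tags leaving exon 21 in control and to 64.1% and 56.7% in *Qk* cKO. The junction of exons 21 and 23, which skips exon 22, took 47.7% and 49.0% in control and 26.1% and 34.1% in *Qk* cKO. The most frequent partner of exon 21 was thus exon 23 in both controls and exon 22 in both *Qk* cKO samples. The junction of exons 21 and 25, which skips all 3 exons, had 82.3 and 44.0 tags in the controls but 11 and 18 in *Qk* cKO. Its share was 31.9% and 23.03% in control and 5.39% and 8.65% in *Qk* cKO, without overlap. The direct junction of exons 21 and 24 was rare in every sample, with 10.3 and 18.0 tags in the controls and 8 and 1 in *Qk* cKO.

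**Figure D2:**
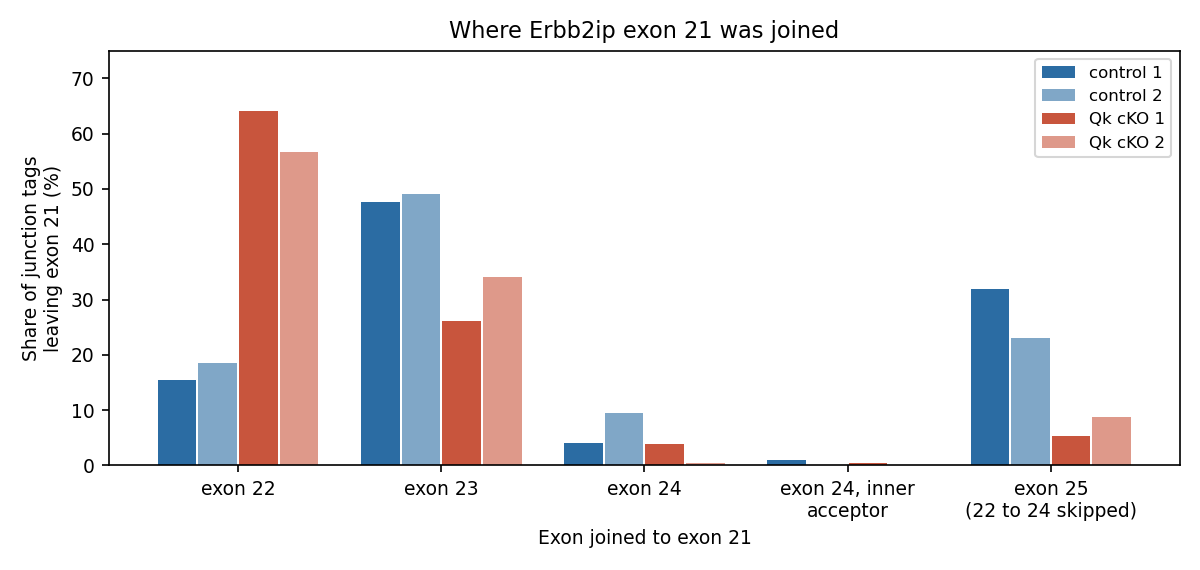
Share (%) of the junction tags leaving *Erbb2ip* exon 21 that join it to each downstream exon, with 1 bar for each of the 2 control (blue) and 2 *Qk* cKO (red) samples. The bars for exon 22 are higher in both *Qk* cKO samples (64.1% and 56.7%) than in both controls (15.5% and 18.5%), while those for exon 23 and exon 25 are lower.

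Exons 22 and 23 were mostly joined to each other. Of the tags leaving exon 22, 81.5% and 92.8% in control and 97.3% and 94.7% in *Qk* cKO went to exon 23, with 22, 27.2, 128.0 and 110.7 tags in control 1, control 2, *Qk* cKO 1 and *Qk* cKO 2. Seen from exon 23, its upstream neighbor was exon 22 in 15.2% and 22.5% of the tags in control and in 70.6% and 60.9% in *Qk* cKO. Exon 23 was therefore present mainly with exon 21 before it in control and mainly with exon 22 before it in *Qk* cKO. Exon 23 was joined to exon 24 by 115.9 and 111 tags in the controls and by 203.9 and 210.0 in *Qk* cKO, 94.9% or more of the tags leaving it in every sample. Exon 25 was reached from exon 24 in 67.6% and 77.6% of the tags in control and in 95.4% and 92.9% in *Qk* cKO.

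Over the gene, 14 of 19 *Erbb2ip* events were tested and 13 met the limits of 0.01 for p and 0.1 for FDR that define a called event in Fisher's exact test, all 13 with higher inclusion in *Qk* cKO and with groups that did not overlap. Over all tested events 7.5% were called, 3.97% with higher inclusion in *Qk* cKO and 3.53% in control, and 37.9% had groups that did not overlap, and nothing is read from the *Erbb2ip* count since the gene was chosen on it. The 13 events are not independent. They comprise 5 cassette, 7 tandem cassette and 1 mutually exclusive event built from the same exons and partly from the same tags. Their Δ*I* lay between -0.439 and -0.081. The smallest was that of exon 23 between exons 21 and 24, which was included at 0.920 and 0.850 in control and 0.941 and 0.993 in *Qk* cKO. Exon 24 between exons 21 and 25 was included at 0.525 and 0.659 in control and 0.914 and 0.867 in *Qk* cKO (Δ*I* -0.308). This inclusion averages the rare junction of exons 21 and 24 with that of exons 24 and 25, which lowers it. Of the tags reaching exon 25, 67.6% and 77.6% in control and 95.4% and 92.9% in *Qk* cKO came from exon 24, a smaller difference. The event that was not called is the choice between the outer acceptor of exon 24, which gives the 207-nt form, and an inner one. The share of the outer acceptor varied little, at 0.974, 0.965, 0.949 and 0.977 in control 1, control 2, *Qk* cKO 1 and *Qk* cKO 2. The inner acceptor was the rare form in every sample.

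*Grip1* exon 10 had the opposite direction. Its inclusion was 0.846 in control replicate 1 (95% Wilson interval 0.758 to 0.906) and 0.658 in control replicate 2 (0.559 to 0.744). In *Qk* cKO it was 0.258 (0.180 to 0.355) and 0.232 (0.162 to 0.321). Both controls lay above both *Qk* cKO samples, and the controls differed from each other more than the *Qk* cKO samples did. Δ*I* was 0.505 (95% Newcombe interval 0.413 to 0.583, coverage 198 tags) and lay between 0.413 and 0.601 when each sample was left out in turn.

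All 3 junctions of exon 10 differed in the same sense. The junction of exons 9 and 10 had 96.8 and 60.8 tags in the controls but 25.3 and 30.0 in *Qk* cKO, and that of exons 10 and 11 had 58.8 and 66.4 against 23.2 and 18.96. The skipping junction of exons 9 and 11 had 14.2 and 33.1 tags in the controls but 69.7 and 81.0 in *Qk* cKO. Exon 11 was reached from exon 10 in 80.6% and 66.7% of the tags in control and in 24.97% and 18.97% in *Qk* cKO. For each of the 3 junctions the groups were separate.

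The short intron 10 between exons 10 and 11 was retained at 0.071 and 0.055 in control and 0.248 and 0.209 in *Qk* cKO (Δ*I* -0.168, coverage 42.1 tags). The Wilson intervals were 0.029 to 0.162 and 0.021 to 0.135 in control and 0.130 to 0.423 and 0.093 to 0.405 in *Qk* cKO, and those of both controls overlapped those of both *Qk* cKO samples. Few tags support it. The tags of the retained form were 9 and 7.79 in control and 15.3 and 10.002 in *Qk* cKO, while the spliced tags of the same intron, which are those of exons 10 and 11, were fewer in *Qk* cKO, as given above. The third called *Grip1* event, an alternative 3′ splice site with Δ*I* 0.5005, is the choice between the acceptors of exons 10 and 11 and repeats the exon 10 tags. The 3 remaining *Grip1* events, cassette exons of 81, 195 and 45 nt, were below the coverage minimum of 20 tags.

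**Figure D3:**
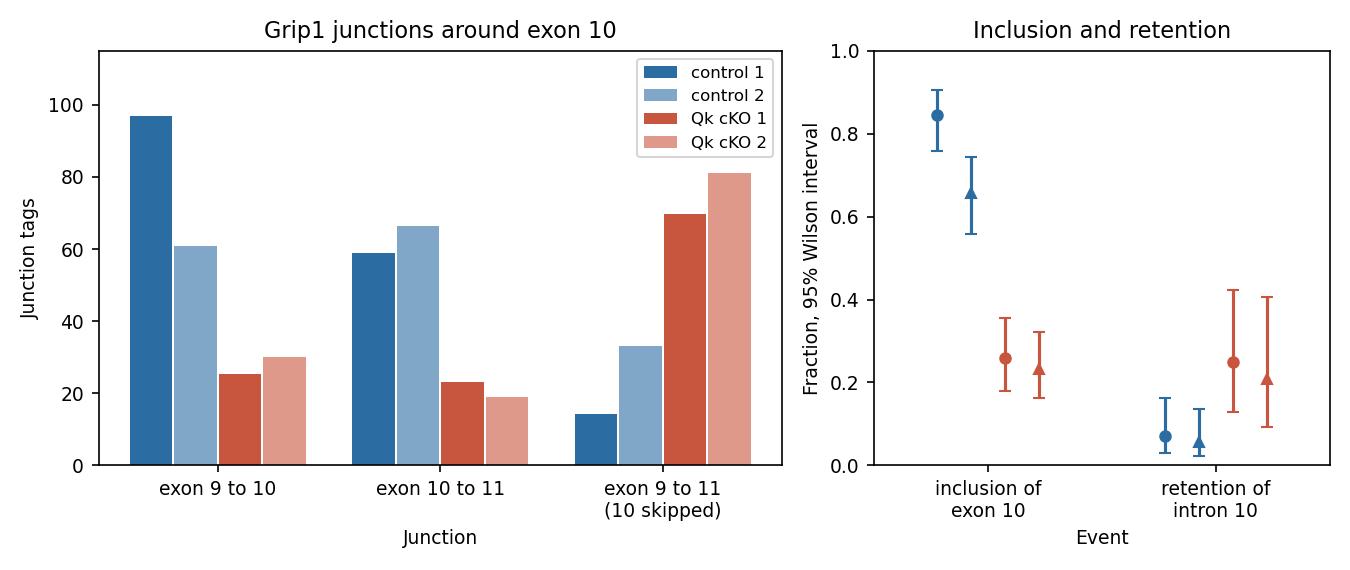
Left, tags on the 3 junctions around *Grip1* exon 10 in each of the 2 control (blue) and 2 *Qk* cKO (red) samples; right, the inclusion of exon 10 and the retention of intron 10 as fractions, with 95% Wilson intervals that cover counting error (circle, replicate 1; triangle, replicate 2). Both inclusion junctions are lower and the skipping junction is higher in both *Qk* cKO samples, and the inclusion of exon 10 is 0.658 and 0.846 in control against 0.258 and 0.232 in *Qk* cKO.

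The cassette events most similar to these exons were searched among 2603 cassette events with coverage of at least 50 tags, by the root mean square difference of inclusion over the 4 samples. Closest to *Erbb2ip* exon 22 was a 12-nt exon of *Tead1*, a transcription factor of the Hippo pathway, at 0.189, 0.217, 0.547 and 0.683 in control 1, control 2, *Qk* cKO 1 and *Qk* cKO 2 (difference 0.0893). A 51-nt exon of *Ubap2l* (0.102) and a 147-nt exon of *Numb* (0.106) followed, the latter gene encoding an endocytic adaptor known for its role in progenitor divisions. Closest to *Grip1* exon 10 was a 120-nt exon of *Etl4* at 0.697, 0.604, 0.182 and 0.1001 (difference 0.110), and then exons of 75 nt in *Ptprm* (0.121), a receptor phosphatase of cell adhesion, and of 33 nt in *Kif16b* (0.139), a kinesin. These likenesses rest on 4 samples of a single contrast and are descriptive.

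The levels of both genes were read over the whole transcript. *Grip1* was at 17.6 and 16.3 RPKM in control and 17.5 and 16.0 in *Qk* cKO, with groups that overlapped and a log2 fold change (*Qk* cKO over control) of -0.00 (SE 0.073). *Erbb2ip* was at 20.02 and 19.99 RPKM in control and 21.5 and 24.99 in *Qk* cKO, a log2 fold change of 0.23 (SE 0.060). Both *Qk* cKO samples lay above both controls, and *Qk* cKO replicate 2 was the highest. Without that sample the log2 fold change was 0.13.

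In order of mean RPKM, *Dlg4* had the highest level, followed by *Scrib*, *Dlg3*, *Dlg1*, *Erbb2ip*, *Grip1*, *Pard3*, *Dlg2*, *Lrrc7* and *Grip2*. The ranges over the 4 samples overlapped between *Dlg3* and *Dlg1*, between *Dlg1* and *Erbb2ip*, and between *Dlg2* and *Lrrc7*, and these neighbors cannot be ordered beyond their spread. The other neighbors in this order did not overlap.

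None of the 8 tested genes was called (0 of 8 in the quasi-likelihood test of edgeR, adjusted over 18834 genes, of which 0.584% were called, 0.207% as higher and 0.377% as lower in *Qk* cKO), nor was any with DESeq2 or edgeR's exact test. At an unadjusted p below 0.05 there were 2 of 8, *Dlg1* and *Lrrc7*, against 8.76% of all genes. The median log2 fold change of the 10 genes was 0.079, and that of all genes tested was -0.003.

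Among the polarity genes, *Scrib* was at 32.3 and 32.3 RPKM in control and 31.8 and 32.3 in *Qk* cKO (log2 fold change 0.00, SE 0.051, FDR 0.996 in edgeR's test). Its groups overlapped, and its standard error was the smallest of the 10 genes. *Pard3*, the apical polarity scaffold of the PAR complex, was at 11.2 and 10.8 RPKM in control and 10.4 and 10.7 in *Qk* cKO (-0.05, SE 0.056, edgeR FDR 0.893). Both *Qk* cKO values were below both controls by a small margin. *Dlg1*, the most widely expressed Dlg protein and a partner of Scrib in polarity, was at 20.4 and 21.2 RPKM in control and 21.9 and 24.98 in *Qk* cKO (0.18, SE 0.060, edgeR FDR 0.291). The groups did not overlap, with *Qk* cKO replicate 2 again highest. Without *Qk* cKO replicate 1 the log2 fold change of *Dlg1* was 0.26, and without *Qk* cKO replicate 2 it was 0.09. *Qk* cKO replicate 2 was the highest sample for 6 of the 10 genes, namely *Erbb2ip*, *Dlg1*, *Dlg2*, *Dlg3*, *Lrrc7* and *Grip2*.

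Among the synaptic scaffolds, *Dlg4*, which encodes the main scaffold of excitatory synapses, was at 88.8 and 92.0 RPKM in control and 83.9 and 89.6 in *Qk* cKO (log2 fold change -0.05, SE 0.068, edgeR FDR 0.894), with overlapping groups. *Dlg3*, a scaffold abundant at young synapses, was at 22.400 and 21.8 RPKM in control and 22.404 and 22.9 in *Qk* cKO (0.05, SE 0.053, edgeR FDR 0.855), so that the groups were apart only in the third decimal. *Dlg3* is on the X chromosome. *Xist* was at 57.1 and 64.5 RPKM and 4 Y-linked genes were at 0 in replicate 1 of both groups, whereas replicate 2 of both groups expressed the Y-linked genes, so that sex is balanced between the groups. *Dlg2* was at 8.004 and 8.18 RPKM in control and 8.31 and 8.97 in *Qk* cKO (0.11, SE 0.065, edgeR FDR 0.712), without overlap.

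*Lrrc7*, the LAP protein of the postsynaptic density, was at 6.73 and 7.85 RPKM in control and 7.93 and 8.96 in *Qk* cKO (log2 fold change 0.23, SE 0.103, edgeR FDR 0.540). The groups were apart, but by less than the difference between the controls, and the log2 fold change was 0.12 without control replicate 1 and 0.34 without control replicate 2. *Grip2*, the paralog of *Grip1*, was at 5.39 and 4.99 RPKM in control and 4.94 and 6.20 in *Qk* cKO (0.11, SE 0.124, edgeR FDR 0.856). *Qk* cKO replicates 1 and 2 of *Grip2* lay on either side of the controls, and without *Qk* cKO replicate 2 the log2 fold change was -0.05. In all, 5 of the 8 genes had groups that did not overlap in RPKM, against 36.9% of all genes.

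**Figure D4:**
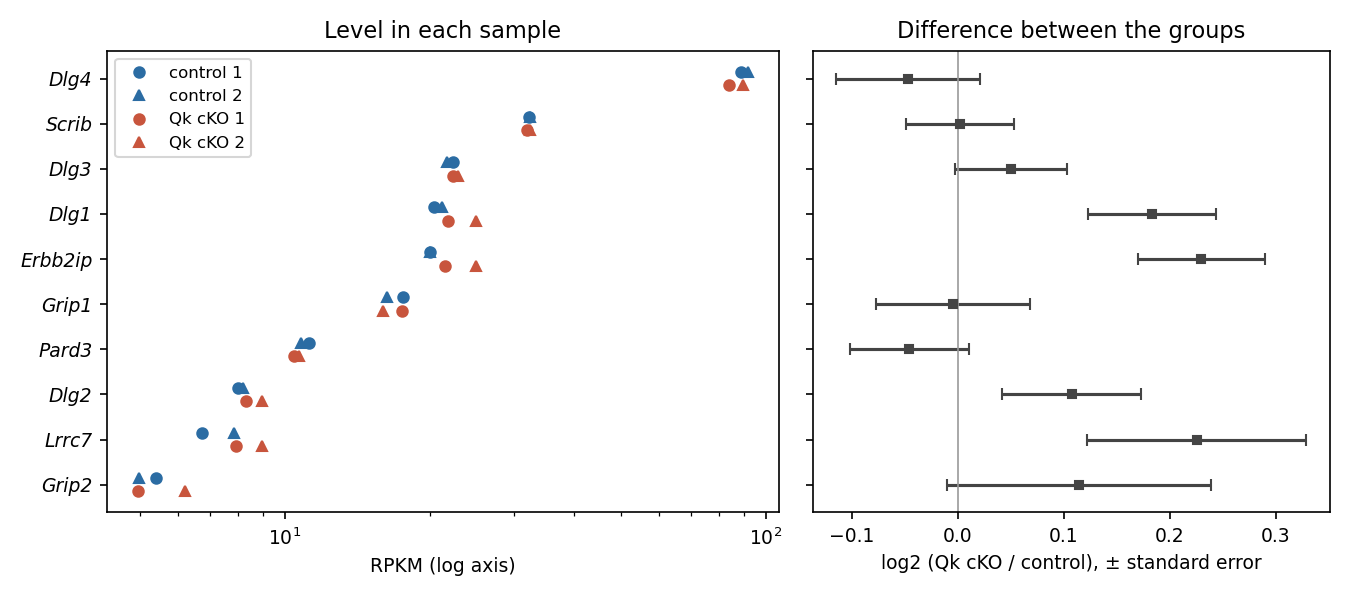
Left, the RPKM of the 10 scaffold genes in each sample on a log axis (blue, control; red, *Qk* cKO; circle, replicate 1; triangle, replicate 2); right, the log2 fold change of *Qk* cKO over control with its standard error from edgeR. *Dlg1*, *Erbb2ip* and *Lrrc7* have the largest log2 fold changes, 0.18, 0.23 and 0.23, and *Grip1* and *Scrib* lie at 0.00.

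In splicing, the 8 other genes hold 49 events, of which 29 were tested. None was called (0 of 29 by Fisher's exact test, against 7.5% of all tested events), and none by edgeR's test for an isoform-by-genotype interaction, in which the replicates set the error (0.557% of all events called). At an unadjusted p below 0.05 in Fisher's exact test there were 3 of 29, against 16.8% of all events. In 12 of the 29 events the groups did not overlap, against 37.9%. The median size of Δ*I* was 0.0262, beside 0.0256 for all tested events. None of the 7 genes with a tested event therefore had a called event, against 10.9% of all genes with a tested event. The events were not fixed at one isoform, since 25 of 29 had a control inclusion between 0.1 and 0.9, and their coverage ran from 20.3 to 429 tags with a median of 113.

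The most different event was an alternative 3′ splice site of *Dlg1*, used at 0.837 and 0.692 in control and 0.637 and 0.614 in *Qk* cKO. Both controls were above both *Qk* cKO samples, but the controls were farther from each other than the lower control was from *Qk* cKO. Its Δ*I* of 0.144 had a p of 0.0473 and an FDR of 0.297 in Fisher's exact test, and a p of 0.140 in edgeR's interaction test. With each sample left out in turn Δ*I* lay between 0.067 and 0.212, lowest without control replicate 1. The *Dlg1* event with the most tags, a choice between mutually exclusive exons, was at 0.336 and 0.356 in control and 0.299 and 0.312 in *Qk* cKO (Δ*I* 0.041, 95% Newcombe interval -0.013 to 0.095, coverage 377 tags).

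*Dlg2* chose between an exon of 100 nt (chr7:92417224-92417323) and one of 46 nt (chr7:92418088-92418133). The first was used at 0.350 and 0.343 in control and 0.215 and 0.260 in *Qk* cKO, with tight controls and both *Qk* cKO samples below them. Δ*I* was 0.110 (95% Newcombe interval 0.030 to 0.189), with p = 0.00628 and FDR 0.144 in Fisher's exact test and p = 0.0358 in edgeR's interaction test, where the FDR was 1.0. When p-values were adjusted over all event types together, this choice was called, in 2 events that share their tags. The event of *Dlg2* with the most tags had a Δ*I* of -0.069 (Fisher's exact test, FDR 0.802).

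The 2 *Dlg3* events with the most tags had overlapping groups. Its mutually exclusive event, with the highest coverage of all 29 (429 tags), was at 0.369 and 0.343 in control and 0.339 and 0.355 in *Qk* cKO, and its 42-nt exon at 0.616 and 0.632 in control and 0.591 and 0.622 in *Qk* cKO. The Newcombe intervals of Δ*I* were -0.044 to 0.064 and -0.058 to 0.093. *Dlg4* holds an alternative exon of 110 nt (chr11:70043658-70043767), not a multiple of 3, so that its skipping shifts the reading frame. It was included at 0.755 and 0.726 in control and 0.760 and 0.720 in *Qk* cKO, with overlapping groups and a Δ*I* of 0.001 (95% Newcombe interval -0.048 to 0.049). The most different *Dlg4* event, an exon of 165 nt, was at 0.849 and 0.890 in control and 0.846 and 0.812 in *Qk* cKO (Δ*I* 0.042, p = 0.0515, FDR 0.282 in Fisher's exact test).

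In *Scrib*, an 84-nt exon was included at 0.176 and 0.208 in control and 0.181 and 0.145 in *Qk* cKO. The groups overlapped and Δ*I* was 0.029 (95% Newcombe interval -0.027 to 0.085, coverage 258 tags). The 84-nt exon of *Pard3* was at 0.802 and 0.722 in control and 0.745 and 0.732 in *Qk* cKO (Δ*I* 0.022). An alternative 5′ splice site of *Pard3*, with 27.3 tags of coverage, was used at 0.241 and 0.156 in control and 0.364 and 0.229 in *Qk* cKO. Its Δ*I* was -0.081 with a 95% Newcombe interval of -0.234 to 0.073, a wide range at this depth. The single tested event of *Grip2* was at 0.714 and 0.888 in control and 0.820 and 0.677 in *Qk* cKO, with a Δ*I* of 0.040 and an interval of -0.120 to 0.189. None of the 4 *Lrrc7* events reached the coverage minimum.

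**Figure D5:**
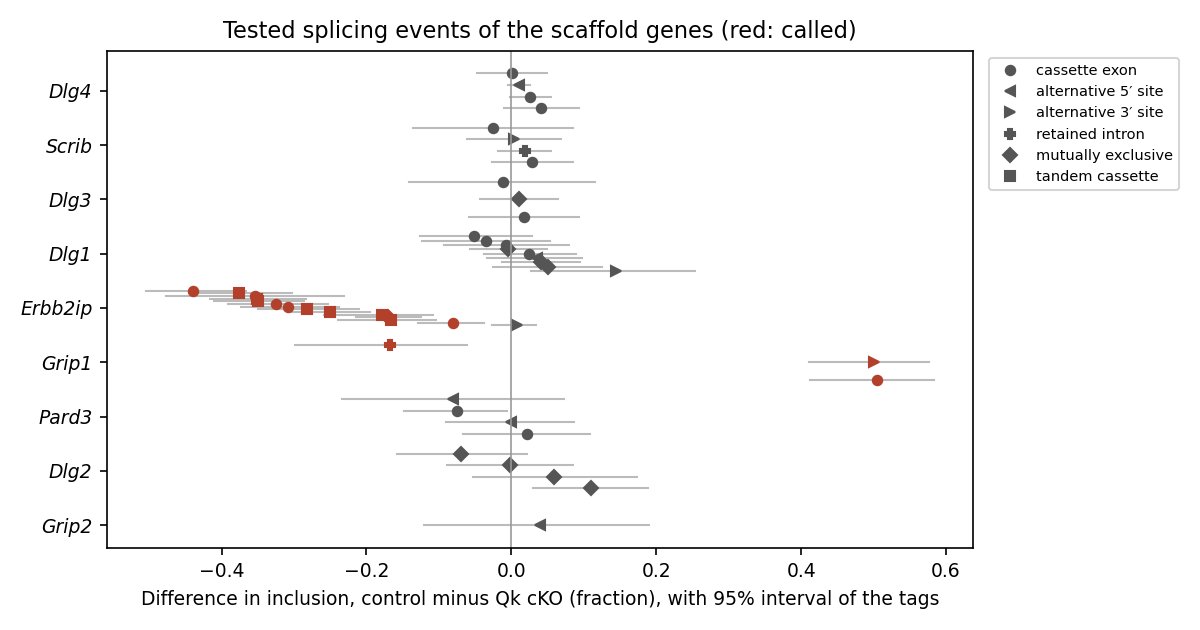
Difference in inclusion (control minus *Qk* cKO, as a fraction) of each of the 46 tested events, by gene, with the 95% Newcombe interval of the tags as a gray line and the event type as the symbol, where red marks events called in Fisher's exact test. The red events lie in *Erbb2ip*, between -0.439 and -0.081, and in *Grip1*, at 0.505, 0.5005 and -0.168, and the 29 events of the other genes lie between -0.081 and 0.144.

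The alternative cassette exons of these genes often kept the reading frame. Of 31 such exons in the 10 genes, 23 (74.2%) had a length that is a multiple of 3, and of 22 in the 8 other genes 15 (68.2%), while over all genes the share was 6817 of 15113 (45.1%). This is a count of annotated exon lengths in which exons of 1 gene are not independent.

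Other genes of these pathways were read from lists of the PAR and Crumbs complexes, of LAP and Scribble module proteins, and of partners of Erbin, Grip and Dlg proteins. Of 51 listed genes, 50 were matched. None was called in level (0 of 50, edgeR's quasi-likelihood test), against 0.584% of all genes. Of the 50, 3 had an unadjusted p below 0.05 in that test, against 8.76% of all genes. Also with DESeq2 and the exact test none was called. The PAR list of 7 genes had a median log2 fold change of 0.02, the Crumbs list of 8 genes 0.02, and the 4 partners of Erbin -0.13.

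Of 77 tested events in 23 of these genes, 11 (14.3%) in 5 genes were called by Fisher's exact test, against 7.5% of all events, and of the 23 genes 5 had a called event, against 10.9% of all genes with a tested event. The 11 events are not independent, since 5 are overlapping events of *Magi1* and 2 share tags in *Adam22*, and 8 were called when 1 event was kept per set with identical tags. They comprised 10 of 40 tested events in the list of Dlg partners and 1 of 16 in the list of Grip partners. Of the 77 events, 5 were called with a Δ*I* of 0.1 or more in size, against 3.3% of all tested events. They lay in 3 genes, all from the list of Dlg partners, each of which is described by its most different event. *Cask*, a membrane scaffold kinase that binds Dlg1, held a 36-nt exon included at 0.799 and 0.856 in control and 0.523 and 0.549 in *Qk* cKO. The groups were widely apart, with a Δ*I* of 0.291, and this was the only one of the 11 that was also called by edgeR's interaction test (FDR 0.0254). *Adam22*, a receptor for the secreted protein Lgi1 that is linked to Dlg4, held a 108-nt exon at 0.373 and 0.353 in control and 0.161 and 0.162 in *Qk* cKO. Its Δ*I* was 0.201 (Fisher's exact test, FDR 0.0400, edgeR's interaction test, FDR 0.461). *Magi1*, a scaffold of cell junctions, used an alternative 3′ splice site at 0.581 and 0.864 in control and 0.864 and 0.892 in *Qk* cKO. Δ*I* was -0.184, control replicate 1 stood below the other samples, and control replicate 2 was nearly equal to *Qk* cKO replicate 1 (Fisher's exact test, FDR 0.0401, edgeR's interaction test, FDR 0.696).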

How the data were processed

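The authors mapped reads with OLego (mm10 plus known exon junctions) and counted tags in Quantas, whose versions are not given in the sources used here. For every gene they deposited an estimated count of tags and the RPKM, and for every splicing event the estimated counts of tags per isoform and junction. Replicates were deposited separately, and of 4 samples all were used (2 per group). Gene tags were rounded to whole numbers, TMM-scaled and compared in edgeR 4.0.16 (R 4.3.3, quasi-likelihood test) over genes with 1 or more tags in a sample. Isoform tags were summed per group, rounded and compared with the two-sided Fisher's exact test (scipy 1.17.1) at a coverage of at least 20 tags. This test takes tags as independent and leaves out the spread between embryos. Benjamini-Hochberg adjustment was made over all genes, or within each of 6 event types, and calls needed p below 0.01 and FDR below 0.1. DESeq2 1.42.0 was an alternative. P-values of edgeR set the group difference against the spread between the embryos of 1 experiment, which is estimated partly from the other genes or events. Exons came from GENCODE M21, in which *Erbb2ip* is *Erbin* and 9 of its 10 splice limits were found. Simulated data were run through the quasi-likelihood, exact and DESeq2 tests of levels and through the Fisher's exact and interaction tests of events. Other alternatives, such as the replicate block, were not run on simulated data. The simulated events held almost no spread between replicates beyond counting error. The 10 genes and the partner lists were chosen with earlier results of these data known. For each gene the most different and the most covered tested event were named, called events that share an exon were described together through that exon and their range, and partner genes with an event called at a Δ*I* of at least 0.1 in size were named through their most different event.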

Additional observations from a re-analysis of the deposited data

How the results depend on the processing

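With 2 samples per group, small differences in level and events with few tags could not be resolved, and the Fisher's exact test and its intervals cover counting error only. The log2 fold change of *Dlg1* was 0.26 without *Qk* cKO replicate 1 and 0.09 without *Qk* cKO replicate 2. With all 4 samples, none of the 8 scaffold genes was called in level in any setting. This did not hold without *Qk* cKO replicate 1, where a single sample stands for the group. Of the events of the 8 scaffold genes, 1 was called with junction tags only and 2 with adjustment over all event types. Both times these were in *Dlg2*, in place of 0. The called events of *Erbb2ip* and *Grip1* numbered 16, 9 with edgeR's interaction test, and 12 to 16 with each sample left out. The 11 called partner events became 5 at a coverage of at least 50 tags, 1 with edgeR's interaction test, 5 with a Δ*I* of at least 0.1, and 4 to 8 with each sample left out. The Δ*I* of *Grip1* exon 10 lay between 0.413 and 0.601 with each sample left out, the highest without control replicate 2. With the replicate number as a block, 0 scaffold genes and 0 of the 29 events were called, and 16 and 11 events of *Erbb2ip* with *Grip1* and of the partners, all by number the same as without the block. Same-numbered samples did not deviate together (correlation of deviations -0.055 over autosomal genes and -0.014 over events), while 0.318 was found over all genes, the sex chromosomes included. Over all genes the 110 calls became 57 with edgeR's exact test, 11 with filterByExpr, 10 with a mean RPKM of at least 1, 192 with the replicate block and 0 to 428 with each sample left out, and the 862 events became 557 with junction tags only, 739 with the replicate block, 64 with edgeR's interaction test and 380 with a Δ*I* of at least 0.1. The cause of these changes was not tested. By *Xist* and the Y-linked genes, replicate 1 was female and replicate 2 male in both groups. The replicate block is therefore also a block for sex, and leaving out a sample unbalances sex between the groups. The Δ*I* of *Erbb2ip* exon 22 and of *Grip1* exon 10 kept their direction with each sample left out and with the mean of the replicates. The other alternatives take Δ*I* from the same junction tags, so they could not change it. The directions of the other called events were not followed.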
